A study of Homo sapiens with 9 samples.

Results

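The regions described here are the accessible chromatin regions of the human major histocompatibility complex (MHC) on the short arm of chromosome 6. They were all regions of 3 deposited region lists whose midpoint lay between bases 28500000 and 33499999 of chromosome 6 (GRCh38). A region was left out if the authors' second score was below 0 or if it was wider than 20 kb, which removed 1 region in the window from each list. The 3 lists held 396, 495 and 389 MHC regions, in all 1280 of 290639 regions.

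The lists came from ATAC-seq of SK-N-MC, a Ewing sarcoma cell line. ATAC-seq cuts open chromatin with the transposase Tn5 and reads where it cut. Cells carried a doxycycline-induced short hairpin RNA: a scrambled control (shScramble), or 1 of 2 hairpins against CHD4 (shCHD4#1 and shCHD4#2), the helicase subunit of the NuRD chromatin remodelling complex. All 3 groups shared the cell line, labelled wildtype in genotype, and 48 h with doxycycline at 100 ng/ml, and each had 3 biological replicates per the labels. Every sample was spiked with Drosophila S2 cells before tagging. One list was deposited per group, so no value below has a replicate error, no test between groups was possible, and each difference is one between lists. Wilson 95% intervals are given for shares, and they cover counting error only.

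The MHC holds the genes that show peptides to T cells. Class I molecules (such as HLA-B and HLA-C) present peptides cut inside the cell, and the proteasome subunits PSMB8 and PSMB9, the transporter TAP1 and TAP2 and the chaperone TAPBP supply and load those peptides. Class II molecules (HLA-DR, HLA-DQ and HLA-DP) present peptides taken up from outside and are made mainly by professional antigen presenting cells, under the coactivator CIITA. Between the classes lies class III, a gene-dense stretch with complement, tumour necrosis factor and heat shock genes. Low class I expression is known from many Ewing sarcomas.

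Promoters of HLA genes carry a Y box, an inverted CCAAT element bound by NF-Y. The letters of its core, GATTGG, were searched on both strands (CCAATC on the reverse). RefSeq promoters of GRCh38.p14 were read from 250 bases before to 50 after each start. A match that reads CCAATC along the gene is not inverted, so it need not be the Y box. Matches on either strand were found in 14 of the 16 HLA class I and class II genes with a promoter entry. This compares with 21.4% of 15811 protein-coding genes and 16.9% of 22131 promoters. HLA-DQA1 and HLA-DPA1 had no match. The 8 stretches below show such matches in promoters that differed in how the 3 lists covered them. Each gives the 150 bases before the start in the direction of the gene, with the matches in capitals. In HLA-B, HLA-C, HLA-F, HLA-G and HLA-DMB the capitals read CCAATC only. HLA-DRB1 has GATTGG, and HLA-DQB1 and HLA-DOB have both.
HLA-B (chr6:31357180-31357329, minus strand): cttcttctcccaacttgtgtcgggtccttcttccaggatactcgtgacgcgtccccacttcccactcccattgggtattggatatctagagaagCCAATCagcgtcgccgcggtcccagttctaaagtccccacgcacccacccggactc
HLA-C (chr6:31272093-31272242, minus strand): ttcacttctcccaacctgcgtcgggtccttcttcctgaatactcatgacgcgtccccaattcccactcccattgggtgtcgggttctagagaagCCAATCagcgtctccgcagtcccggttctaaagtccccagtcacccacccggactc
HLA-F (chr6:29723284-29723433, plus strand): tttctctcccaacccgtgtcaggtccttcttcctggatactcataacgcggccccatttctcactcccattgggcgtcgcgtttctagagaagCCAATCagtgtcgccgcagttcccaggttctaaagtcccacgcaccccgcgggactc
HLA-G (chr6:29827675-29827824, plus strand): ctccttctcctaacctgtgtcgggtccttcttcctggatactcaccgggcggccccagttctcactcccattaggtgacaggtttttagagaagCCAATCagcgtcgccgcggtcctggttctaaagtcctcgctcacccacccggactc
HLA-DRB1 (chr6:32589849-32589998, minus strand): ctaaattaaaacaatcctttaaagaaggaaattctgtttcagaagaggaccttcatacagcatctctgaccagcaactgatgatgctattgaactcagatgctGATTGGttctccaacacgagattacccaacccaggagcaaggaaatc
HLA-DQB1 (chr6:32666658-32666807, minus strand): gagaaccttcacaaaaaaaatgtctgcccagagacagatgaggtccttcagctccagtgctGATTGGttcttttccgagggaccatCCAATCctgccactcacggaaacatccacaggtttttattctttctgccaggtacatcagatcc
HLA-DMB (chr6:32941029-32941178, minus strand): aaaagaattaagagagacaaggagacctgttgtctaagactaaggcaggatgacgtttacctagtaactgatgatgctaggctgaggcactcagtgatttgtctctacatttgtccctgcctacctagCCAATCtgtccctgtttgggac
HLA-DOB (chr6:32817003-32817152, minus strand): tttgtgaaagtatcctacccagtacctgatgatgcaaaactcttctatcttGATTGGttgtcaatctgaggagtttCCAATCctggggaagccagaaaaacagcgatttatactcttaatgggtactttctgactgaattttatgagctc

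In all 4 class I stretches the CCAATC match stood in an identical run of 16 bases, tagagaagCCAATCag. Its first letter lay 56 or 57 bases before the start used. For HLA-G, which has 3 annotated starts, this was the last of them, inside the gene. Farther upstream, HLA-B, HLA-C and HLA-F also hold the inverted letters attgg, in cccattggg, where HLA-G reads cccattagg. The search letters did not mark these. HLA-DRB1, HLA-DQB1 and HLA-DOB shared 9 bases around the GATTGG match, tGATTGGtt. These are reference letters: the alleles of SK-N-MC may differ.

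Genes of peptide loading respond to interferon through interferon-stimulated response elements. Letters of this kind were searched as GAAANNGAA on both strands (TTCNNTTTC on the reverse) and were found in 7.09% of the 22131 promoters. TAP1, TAP2, TAPBP and PSMB8 each held them and PSMB9 did not. None of the 5 held GATTGG or CCAATC. The stretches of TAP1, TAP2 and TAPBP, which were open in all 3 lists, are shown with the matching letters in capitals. The pairs of matches in TAP1 and in TAPBP overlap.
TAP1 (chr6:32853705-32853854, minus strand): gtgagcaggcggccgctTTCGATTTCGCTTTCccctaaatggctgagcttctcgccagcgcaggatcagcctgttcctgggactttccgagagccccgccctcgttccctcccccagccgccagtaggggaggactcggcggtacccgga
TAP2 (chr6:32838740-32838889, minus strand): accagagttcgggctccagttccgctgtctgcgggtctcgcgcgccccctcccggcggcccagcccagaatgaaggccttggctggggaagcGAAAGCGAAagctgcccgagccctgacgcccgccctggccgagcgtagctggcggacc
TAPBP (chr6:33314079-33314228, minus strand): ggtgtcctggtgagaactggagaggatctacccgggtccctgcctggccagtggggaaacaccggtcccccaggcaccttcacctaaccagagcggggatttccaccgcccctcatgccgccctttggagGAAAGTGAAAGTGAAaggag

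MHC regions numbered 396 with shScramble, 495 with shCHD4#1 and 389 with shCHD4#2. The list of shCHD4#1 thus held 1.25 times the shScramble number (95% interval 1.09 to 1.43) and that of shCHD4#2 0.982 times (0.852 to 1.13). Over the rest of the genome the same ratios were 1.44 (1.42 to 1.45) and 0.97 (0.961 to 0.98). The intervals of the MHC and the rest met for both hairpins. With shCHD4#1 they barely did (1.093 to 1.430 and 1.423 to 1.448), and the MHC interval left out the 1.435 of the rest. With the best 20000 regions of each list, which makes the lists equally long, the MHC ratio of shCHD4#1 turned to 0.942 (rest of the genome 1.00). The total sequencing depth behind each list is unknown. Of the 5 Mb window, regions covered 15.1%, 20.2% and 12.9% with shScramble, shCHD4#1 and shCHD4#2. The covered bases of shCHD4#2 were 0.853 times those of shScramble (rest of the genome 0.73 times). In both, the shCHD4#2 list was thus made of narrower regions. Where each list had a single region in 1 merged MHC region (116 places), the median width was 1700 bases with shScramble, 1795 with shCHD4#1 and 1405 with shCHD4#2.

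The window was divided into class I (to the end of MICB at base 31511124), class III (to the end of NOTCH4 at base 32224067) and class II. Class I includes an extended part before ZFP57, and class II an extended part from COL11A2 on. What remains of each is called proper. Class I held 227, 283 and 221 regions, class III 78, 99 and 75, and class II 91, 113 and 93, each in the order shScramble, shCHD4#1, shCHD4#2. The ratios of shCHD4#1 to shScramble lay between 1.24 and 1.27 in the 3 parts, and their intervals overlapped. Of these 3, class III was the most densely filled, with 109 regions per Mb with shScramble against 75.4 in class I and 71.3 in class II. Taken alone, extended class II had 113 and class II proper 56.5, extended class I 61.4 and class I proper 84.3. In class III 62.8% (51.7 to 72.7) of shScramble regions lay within 1 kb of the start of a protein-coding gene, in class I 23.8% (18.7 to 29.7). The parts differ in gene density as well, whose share in these numbers was not tested.

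**Figure D1:**
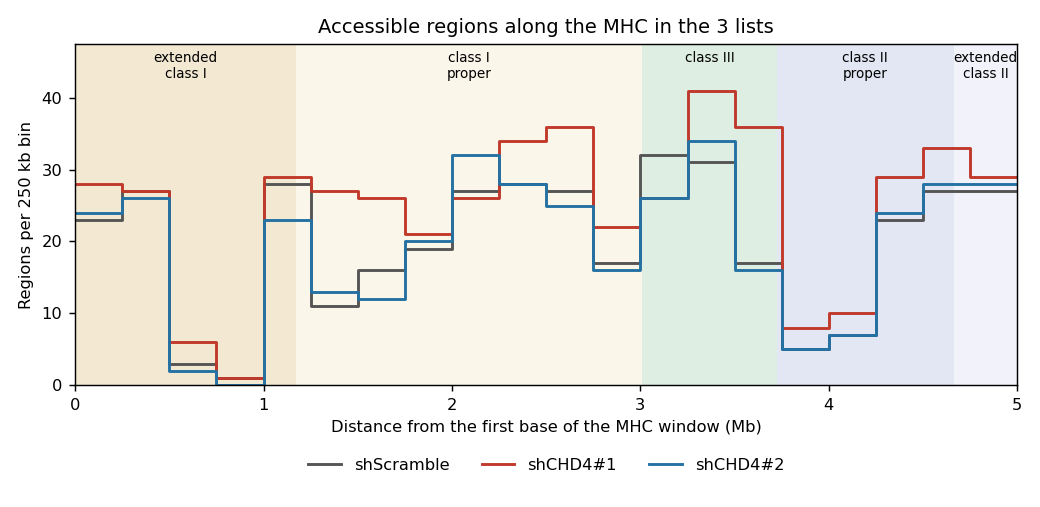
Regions per 250 kb bin (vertical axis) by distance from the first base of the window (horizontal axis, Mb), with a line per list and shading for the parts of the MHC. All 3 lists had 6 or fewer regions a bin between 0.5 and 1 Mb, where olfactory receptor genes lie, and shCHD4#1 stood above both other lists at 1.25 to 1.75 Mb and 3.5 to 3.75 Mb.

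The widest stretches without a region in any list lay at receptor genes of other tissues and in class II. The longest, 150 kb (29296781 to 29447140), spans the olfactory receptor genes OR14J1, OR5V1, OR12D3, OR12D2, OR11A1 and OR10C1. Another of 120 kb (32292131 to 32412070) spans TSBP1 and BTNL2. A gap of 42.5 kb covered HLA-DQA1. Of the 14 olfactory receptor genes, 13 had a start that no list covered and 8 had no region within 5 kb in any list. OR11A1 had 1, 0 and 0 regions within 5 kb, and OR14J1, OR2J1 and OR2J3 each had 0, 1 and 0. The 1 gene with a covered start, OR2I1, was covered with shCHD4#1 only and is named after its values were seen.

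The bins in which shCHD4#1 stood farthest from both other lists lay at HLA-G, at RNF39 and the TRIM genes, and at TNXB. From 1.25 to 1.5 Mb, where HLA-G lies, it had 27 regions, against 11 with shScramble and 13 with shCHD4#2. From 1.5 to 1.75 Mb, which holds RNF39, TRIM31, TRIM40, TRIM10, TRIM15 and TRIM26, it had 26 against 16 and 12. From 3.5 to 3.75 Mb, where TNXB (tenascin XB, an extracellular matrix protein) lies, it had 36 against 17 and 16.

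Regions of the 3 lists that shared at least 1 base were merged into 471 MHC regions. Of these, 229 (48.6%, 44.1 to 53.1) held a region of all 3 lists, against 32.9% (32.7 to 33.2) in the rest of the genome. A merged region with both hairpins and without shScramble (gained) was found 32 times, 6.79% (4.85 to 9.43), beside 10.1% over all chromosomes. A merged region with shScramble and with neither hairpin (lost) was found 25 times, 5.31% (3.62 to 7.72), beside 10.6% over all chromosomes. The share in all 3 lists was larger in the MHC than in the rest. The shares of gained and lost regions were smaller, but their intervals held the value of the rest once regions were limited to an authors' p of 0.05, to the best 20000 of each list, or joined at 50% overlap: gained 6.87 to 16.7 beside 13.1, 7.62 to 16.1 beside 11.5 and 6.35 to 10.8 beside 10.1, lost 4.43 to 12.9 beside 12.4, 9.56 to 18.7 beside 17.6 and 8.1 to 13.0 beside 12.4 (all in percent).

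These shares moved with how a region ranked and where it lay. Rank here is a region's place in its list by the authors' p, as a percent of the list, so that 1% is near the top. The median MHC region ranked at 33.3%, 37.7% and 33.0% with shScramble, shCHD4#1 and shCHD4#2, against 49.8%, 49.9% and 49.8% in the rest of the genome. The shScramble list was cut by rank into 4 equal classes. Among merged regions in the best class, 90.8% (85.1 to 94.4) of 152 in the MHC and 89.8% (89.3 to 90.2) in the rest were in all 3 lists. In the second class these shares were 73.0% (61.0 to 82.4) and 64.3%, in the third 34.9% (22.4 to 49.8) and 38.1%, and in the last 61.2% (47.2 to 73.6) and 36.1%. In the last class alone the interval of the MHC left out the value of the rest. Within 1 kb of a start, 69.3% (60.8 to 76.6) of merged MHC regions were in all 3 lists, and farther away 41.0% (35.9 to 46.3), against 57.9% and 28.4% in the rest.

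**Figure D2:**
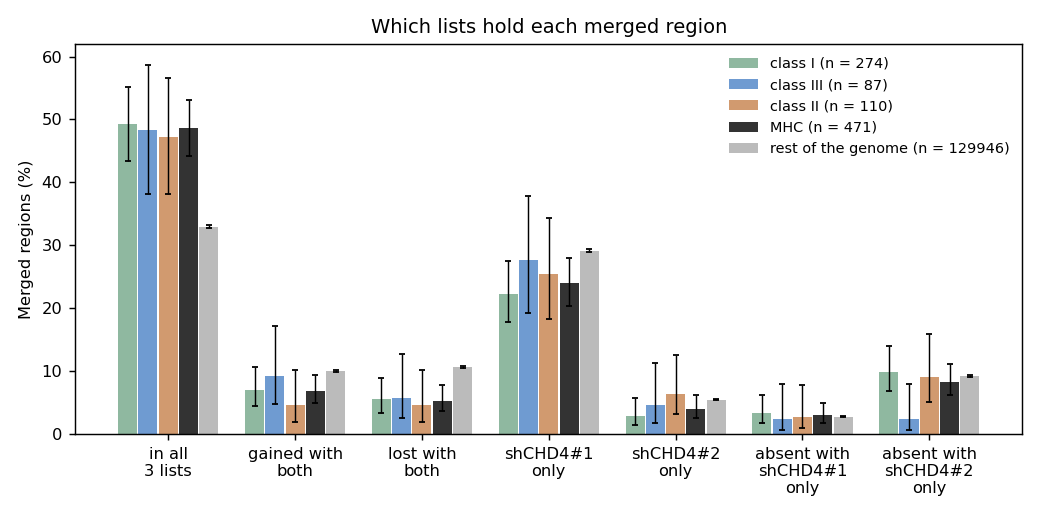
Percent of merged regions (vertical axis) by which lists held them (horizontal axis), for the 3 parts, the whole MHC and the rest of the genome, with Wilson 95% intervals as bars. The 3 parts of the MHC lie between 47.3% and 49.3% in all 3 lists, above the rest at 32.9%.

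Counted with their extended parts, class I, class III and class II hardly differed in this. In all 3 lists were 49.3% (43.4 to 55.2), 48.3% (38.1 to 58.6) and 47.3% (38.2 to 56.5) of their merged regions. Gained were 19 of 274, 8 of 87 and 5 of 110, and lost were 15, 5 and 5. All of these intervals overlapped. Within class II the shares in all 3 lists lay farther apart. They were 38.4% (28.1 to 49.8) in class II proper, an interval that holds the 32.9% of the rest, and 64.9% (48.8 to 78.2) in extended class II. In class I they were 46.9% (39.9 to 53.9) in the proper and 54.9% (44.1 to 65.2) in the extended part.

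The 5 best-ranked shScramble regions lay at AGPAT1, ATF6B, PPP1R11, NEU1 and VPS52. At AGPAT1 and RNF5 (a lipid acyltransferase and a ubiquitin ligase) a region of 2860 bases, 32175861 to 32178720, stood at rank 23 of 85779 with shScramble, and this place's best rank was 151 with shCHD4#1 and 104 with shCHD4#2. The region at ATF6B ranked 62 with shScramble and the place 794 and 662 with the hairpins. The start of PPP1R11 (a phosphatase inhibitor) ranked 117, 177 and 154, and NEU1 (lysosomal sialidase) 170, 102 and 124. A region that reaches over the end of VPS52, a vesicle tethering gene, 33247871 to 33251320, gave best ranks of 209, 219 and 223. Each of these 5 places ranked high in every list.

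Some places ranked far apart. A region 4944 bases or more from IER3, a stress-response gene, ranked 1052 with shScramble, 96 with shCHD4#1 and 45 with shCHD4#2. MSH5, a meiotic mismatch repair homologue, had ranks 4192, 183 and 171. At MDC1, a DNA damage mediator, the region with shCHD4#2 was 2770 bases wide and ranked 64, while the shScramble and shCHD4#1 regions there were 12630 and 14010 bases wide with an authors' p of 0.951 and 0.949. Very wide regions with a p close to 1 occur in every list, so that a poor rank can go with a broad region.

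None of the 5 gained regions that ranked best came within 1 kb of a protein-coding start, but 4 held the start or an end of a non-coding gene. The best, 29748831 to 29749360, held the start of the antisense gene HLA-F-AS1 and ranked at 5.38% with shCHD4#1 and 5.74% with shCHD4#2. With shScramble too a region came within 1 kb of a start of HLA-F-AS1, and this gene had 6, 5 and 5 regions within 5 kb. The next, 31196921 to 31198740, held the start of the long non-coding gene HCG27 and ranked at 6.75% and 9.97%. The third held the transfer RNA gene TRA-AGC6-1 and the fifth an end of the pseudogene HCG22. The fourth lay inside the long non-coding gene LINC02570, 35230 bases from the protein-coding start of DDR1, a collagen receptor kinase. Of the 32 gained regions 7 (21.9%) were within 1 kb of a protein-coding start, beside 18.5% of those in the rest of the genome. For 2 of the 32 the authors gave a p of 0.05 or less in each hairpin list, beside 300 of 13083 in the rest. Over the 32 gained regions the median rank was 39.2% with shCHD4#1 and 64.0% with shCHD4#2 (41.6% and 60.5% in the rest of the genome). Over the 25 lost regions it was 59.5% of the shScramble list (69.2% for lost regions of the rest of the genome), the best stood at 36.3%, 47327 bases from the protein-coding start of MUC22, a mucin, and for none was the authors' p 0.05 or less (66 of 13748 in the rest). By protein-coding start, the others among the 5 best were nearest to GPX5, C6orf15, DDR1 and SCAND3. The best lost region also came within 1 kb of an end of HCG22. The one nearest to GPX5 held the start of the long non-coding gene LOC107986586, which a shCHD4#1 region within 1 kb covered as well.

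The window held 172 protein-coding genes. A start was called covered if a region came within 1 kb. The start region of a gene is below the best-ranked region within that distance of any of its starts, which need not be the same place in each list. For the 18 genes without a RefSeq promoter entry either end of the gene was used, HLA-E and HLA-DRA among them. Covered starts numbered 116 (67.4%) with shScramble, 121 (70.3%) with shCHD4#1 and 119 (69.2%) with shCHD4#2. For all protein-coding genes these shares were 60.4%, 68.8% and 65.4%. In all 3 lists 108 MHC starts were covered, and 43 in none. Of all 19970 protein-coding genes these numbers were 11081 and 5430.

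Starts covered in both hairpin lists but not in the shScramble list numbered 5 of 172 (2.91%), beside 7.03% of all genes. They were RNF39, NCR3 (an activating receptor of natural killer cells), SAPCD1, HLA-DRA and ZBTB22. The start region of ZBTB22, a zinc finger gene, stood at 0.61% of the shCHD4#1 list and 0.554% of the shCHD4#2 list, where it lay beside DAXX, a histone H3.3 chaperone whose start region ranked at 0.831% with shScramble. That of SAPCD1 stood at 0.571% and 15.5%. Both hairpin lists ranked the ZBTB22 region high. The merged regions with the ZBTB22 and SAPCD1 start regions also held a shScramble region farther from the start, so neither counted as gained. The regions near the RNF39 start lay at different places in the hairpin lists, so this start was not covered by 1 shared region.

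Covered with shScramble only were 2 starts (1.16%), beside 1.06% of all genes. They were MOG, a myelin protein with an immunoglobulin domain, and UBD, an interferon-induced ubiquitin-like protein. Their shScramble regions ranked at 48.7% and 82.4%.

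More regions within 5 kb with both hairpins than with shScramble were found for 28 MHC genes (16.3%), beside 25.2% of all genes. Fewer were found for 30 (17.4%), beside 13.0% of all genes. The number of regions also depends on how a stretch was cut up: 17.4%, 25.1% and 19.3% of MHC regions directly abutted another of the same list. Joined into blocks, MHC regions numbered 359, 429 and 348. With blocks, more were found for 25 genes (14.5%, all genes 23.5%) and fewer for 33 (19.2%, all genes 12.3%).

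HLA-C, a classical class I gene that also serves as a ligand of natural killer cell receptors, had 3, 2 and 2 regions, or 1, 2 and 2 blocks, so the order of the lists turned with the joining. Its start region ranked at 3.02%, 2.28% and 2.69%. HLA-C was thus open at a like rank in all lists.

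HLA-B had 2, 1 and 1 regions, and its start region ranked lower, at 31.6%, 31.9% and 22.9%. The shScramble region over the gene body, 31355621 to 31357080, had no counterpart with either hairpin. The shCHD4#1 region began at base 31357481, upstream of the printed stretch. It thus left out the CCAATC match at bases 31357230 to 31357235, which the other lists covered. Around HLA-B regions spanned 2640, 870 and 650 bases, less with both hairpins.

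HLA-F, a non-classical class I gene, had 4, 2 and 2 regions. Its start region, which held the CCAATC match in all 3 lists, ranked at 25.8% with shScramble, 1.73% with shCHD4#1 and 11.3% with shCHD4#2. A second shScramble region in the gene, 29723731 to 29725200, had no counterpart with a hairpin. HLA-F thus had fewer regions and a better ranked start region with both hairpins.

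HLA-E, which is read by natural killer cell receptors, had 3, 2 and 5 regions, and the best at either end ranked at 51.8%, 82.9% and 42.4%, with shCHD4#1 at another place than the other lists. HLA-G, known from the placenta, had 0, 3 and 1 regions, but none within 1 kb of a start. One of these places, 29834191 to 29835540, was shared by both hairpin lists, at 54.8% and 67.0%. HLA-G carries the run of 16 letters printed above, as HLA-C does, but not the cccattggg of HLA-C. In no list did a region hold this run in HLA-G.

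MICA and MICB encode stress ligands of the receptor NKG2D. MICA had 2, 2 and 3 regions and a start region at 7.71%, 39.0% and 6.84%, where the shCHD4#1 region ended short of the start and shared no base with the others. MICB had 2, 3 and 3 regions and a start region at 24.0%, 16.2% and 17.3%. Both starts were covered in every list.

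Among the 13 class II genes, 7 starts were covered with shScramble, 8 with shCHD4#1 and 9 with shCHD4#2, and 6 in all 3 lists. These 6 were HLA-DRB1, HLA-DQB1, HLA-DMB, HLA-DMA, HLA-DPA1 and HLA-DPB1. HLA-DQA1, HLA-DQA2 and HLA-DQB2 were covered in none. HLA-DQA1 had no region within 5 kb in any list.

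HLA-DRA, the alpha chain of all HLA-DR molecules, had no region with shScramble and 1 with each hairpin, 32439301 to 32440100 with shCHD4#1 and 32439181 to 32440080 with shCHD4#2. They ranked at 68.3% and 63.1%, so both were weak in their lists. HLA-DRB1 had 1, 2 and 1 regions, with a start region at 23.5%, 36.3% and 23.9%. HLA-DRB5 had a region with shCHD4#2 only. HLA-DRA was the 1 class II gene with a start covered by both hairpins and not by shScramble.

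HLA-DMA and HLA-DMB form HLA-DM, which edits the peptides of class II molecules. HLA-DMB had 2 regions in each list, and its start region ranked at 7.90%, 21.2% and 21.3%. HLA-DMA had 4, 3 and 3 regions, and its start region ranked at 47.9%, 65.0% and 3.13%. HLA-DOA and HLA-DOB form HLA-DO, an inhibitor of HLA-DM. HLA-DOA had 4, 2 and 2 regions and HLA-DOB 0, 3 and 0. The HLA-DM and HLA-DO genes thus followed no common order of the lists.

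HLA-DPA1 had 4, 5 and 5 regions and HLA-DPB1 4, 5 and 6, and the genes share most of them. Start regions ranked at 29.4%, 72.2% and 42.5% for HLA-DPA1, which has 2 starts, and at 21.9%, 39.1% and 31.3% for HLA-DPB1. For HLA-DPA1 the shCHD4#2 value came from another place, 33079651 to 33080210, than the other lists. For HLA-DPB1 the values belong to 1 place, whose rank was poorer with both hairpins. HLA-DQB1 had 2, 2 and 3 regions, with start regions at 97.6%, 98.3% and 98.2%. HLA-DQB2 had 1, 4 and 2 regions and HLA-DQA2 had 1 in each list, which it shares with HLA-DQB2.

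**Figure D3:**
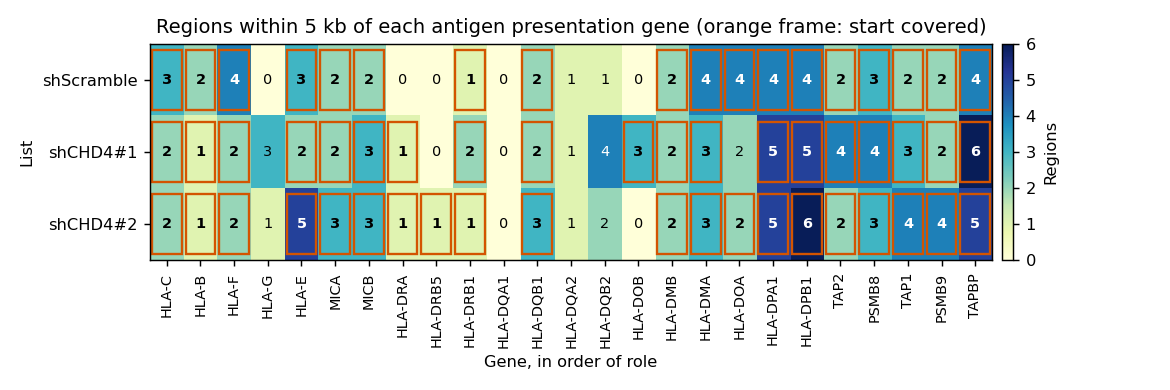
Number of regions within 5 kb of the named class I, class II and peptide loading genes (columns, by role) in each list (rows), printed and coloured, with an orange frame and bold digits where the start was covered. HLA-C, HLA-B, HLA-F and HLA-E are framed in all 3 rows, HLA-G, HLA-DQA1, HLA-DQA2 and HLA-DQB2 in none.

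All 5 peptide loading genes had a covered start in each list, as did 11081 of all 19970 protein-coding genes. TAP1 and PSMB9 share 1 start region between them, at 4.65%, 4.16% and 4.2%. The TAP2 start region ranked at 5.46%, 3.05% and 4.67%. Both places thus ranked better than 10% in every list. The PSMB8 start lay in a region with shCHD4#1 (3.35%) and shCHD4#2 (5.02%), while the nearest shScramble region, 32844941 to 32846700, did not hold it and overlapped both this shCHD4#1 region and a second one at 31.3%. The TAPBP start region ranked at 19.9%, 19.7% and 19.6%, where the shScramble region shared no base with the others. The region that held the TAPBP start itself ranked at 61.0%, 19.7% and 98.2%. The region numbers of TAP1 (2, 3 and 4) and PSMB9 (2, 2 and 4) became 2, 2 and 2 for each gene once abutting regions were joined, and those of TAPBP (4, 6 and 5) became 4, 5 and 3.

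**Figure D4:**
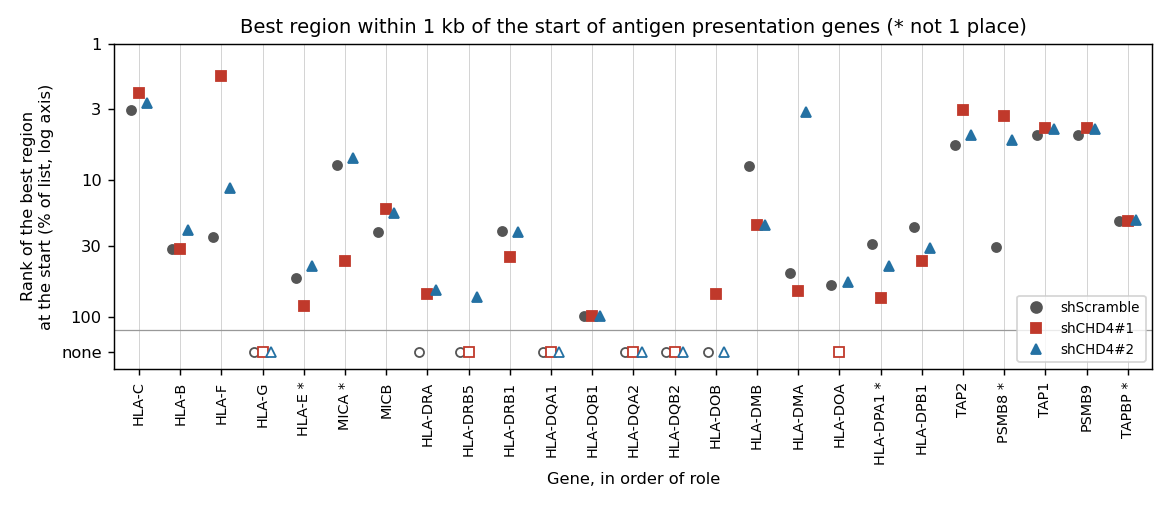
Rank of the best region within 1 kb of a start, in percent of the list (vertical log axis, best at the top), for the same genes (horizontal axis), with a symbol per list, open symbols where no region was found, and an asterisk where the regions of the lists do not all overlap. HLA-C, TAP2, TAP1 and PSMB9 rank better than 10% in all 3 lists, and HLA-F ranks better with both hairpins than with shScramble.

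The GATTGG or CCAATC match nearest the start could be placed in 14 HLA genes. A region held it in 8 of them with shScramble, 8 with shCHD4#1 and 9 with shCHD4#2. Of 3252 protein-coding genes with the same letters before a start, 56.9%, 62.8% and 64.1% were held. HLA-C, HLA-F, HLA-DRB1, HLA-DQB1, HLA-DMB, HLA-DMA and HLA-DPB1 had it in a region of every list. HLA-G, HLA-DQA2, HLA-DQB2 and HLA-DOA had it in none. In HLA-DQB1 and HLA-DOB the match used lay 64 and 74 bases before the start, outside the run shared with HLA-DRB1. A match gives the letters only, in either direction, so it need not be the Y box. Factor binding was not measured.

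HLA genes have near-identical copies and many alleles, and reads from them can be placed on another copy. How such reads were treated is not given in the sources used here, and its part in these values was not tested. The same holds for C4A and C4B, HSPA1A and HSPA1B, and TNXB.

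In class III, the complement genes C2 and CFB had 4, 11 and 5 and 2, 5 and 2 regions, while C4A had none and C4B 0, 3 and 0. C2 shares its start region with EHMT2, a histone H3 lysine 9 methyltransferase with 4, 8 and 6 regions. That region was 5500 bases wide with shScramble, 1870 with shCHD4#1 and 1180 with shCHD4#2. EHMT2 regions spanned 7940, 7818 and 7338 bases, so a higher number went with no larger span. TNXB had 4, 14 and 8 regions over 4860, 20828 and 14908 bases, more by both measures with both hairpins.

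TNF, LTA and LTB, cytokines of the tumour necrosis factor family, had 3, 2 and 2, 3, 3 and 2, and 5, 3 and 3 regions. In blocks TNF had 2 in each list. Of these starts the TNF start alone was covered, in all 3 lists, at 44.1%, 8.90% and 50.2%. The heat shock genes HSPA1L, HSPA1A and HSPA1B had 5, 3 and 5, 3, 3 and 3, and 4, 4 and 4 regions (in blocks HSPA1L had 2, 3 and 4 and HSPA1A 1, 3 and 2), and every start was covered in every list. The region shared by the HSPA1L and HSPA1A starts ranked at 1.33%, 1.63% and 2.17%.

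Of the 10 genes of chromatin and transcription in the MHC, all had a covered start in every list, beside 11081 of all 19970 genes. More regions with both hairpins were found for EHMT2, for BRD2, a bromodomain reader (3, 4 and 4), and for DAXX (3, 5 and 4). Fewer were found for DDX39B, an RNA helicase (4, 3 and 3), and PHF1, a Polycomb partner (5, 4 and 4). In blocks, BRD2 had 3, 4 and 3, DAXX 2, 4 and 2 and DDX39B 3, 3 and 3, which ended these 3 calls, while RXRB, with 5, 3 and 4 blocks, had fewer with both. The remaining 5 were MDC1 (3, 2 and 3), ATF6B (3, 3 and 4), PBX2 (3, 7 and 2), RXRB (6, 3 and 7) and RING1 (4, 7 and 4). BRD2 had a start region at 22.7%, 25.9% and 0.281%.

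Relative to shScramble the 6 MHC genes with the highest mean region number over both hairpins were HLA-G, TNXB, C4B, EGFL8, HLA-DOB and HLA-DRA. For C4B and HLA-DOB that rested on shCHD4#1 alone. The 6 with the lowest were BTNL2 (1, 0 and 0), OR11A1 (1, 0 and 0), APOM (4, 2 and 2), GPANK1 (4, 2 and 2), HLA-DOA and HLA-F. Around APOM, a lipoprotein component, regions still spanned 6670, 5550 and 5750 bases.

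Over all 19970 protein-coding genes, 10221 had more regions and 3448 fewer with shCHD4#1, and 6118 more and 6565 fewer with shCHD4#2. Of the 8 TRIM genes 6 had fewer regions with shCHD4#2, while shCHD4#1 had more for 4 and fewer for 4. TRIM31 had 2, 1 and 1 regions, TRIM27 3, 1 and 3, TRIM40 1, 3 and 1, and TRIM39 3, 2 and 2. The zinc finger gene ZNF311 had 0, 1 and 0. Of 6 LY6 genes, 2 starts were covered, in all 3 lists, and LY6G5C had 3, 1 and 2 regions and LY6G5B 1, 1 and 2. MOG had 6, 5 and 4. Of the skin and pluripotency genes, POU5F1, a stem cell factor, had 1, 3 and 2 regions and PSORS1C1 10, 8 and 7, while TCF19 had 1, 2 and 1 and CCHCR1 3, 3 and 2.

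Outside the MHC, 23 antigen presentation genes were followed. Their starts were covered for 20 with shScramble, 22 with shCHD4#1 and 21 with shCHD4#2. More regions with both hairpins were found for 7 of them (30.4%) and fewer for 5 (21.7%), beside the shares of all genes given above. In blocks these numbers were 4 and 5. The 6 with the largest mean difference were ERAP2, a peptide trimming enzyme (0, 2 and 1), NLRC5, the class I coactivator (2, 4 and 8), IRF1, an interferon response factor (4, 2 and 2), the proteasome activator genes PSME1 and PSME2 (2, 4 and 3 each, in blocks 2, 3 and 2) and CALR, a chaperone (7, 5 and 4). CIITA and B2M are given for their roles, after their values were seen. CIITA had 7, 11 and 10 regions, and its start region ranked at 8.89%, 7.42% and 7.39%. B2M, the class I light chain, had 3, 3 and 1, and its start region ranked at 30.4%, 9.79% and 1.03%.

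The cell type was checked on marker starts. Of 6 Ewing sarcoma markers, the starts of STEAP1, CCND1, NKX2-2, LIPI and NR0B1 were covered in all 3 lists, and CD99 had no region. Of 8 markers of cells that make class II, PTPRC, the leukocyte antigen CD45, had no covered start in any list and MS4A1 no region, while CD74, CIITA and ITGAX were covered in all 3. ATAC-seq gives no level of CHD4, so the knockdown was not checked here.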

How the data were processed

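ATAC-seq region lists of 3 groups (9 samples, 3 replicates each) were used, 1 list per group, grouped by the labels. Tools named in the submitters' processing notes are BWA, deepTools 3.2.1, FastQC 0.11.7, SAMtools 1.9 and Trimmomatic 0.36, and builds dm6 and GRCh38. The sources used here do not name the peak caller, its settings, a Tn5 shift or a spike-in scaling, which could change how many regions a list holds. The lists are filed under replicate 1 and their names carry ChIP-R, a program that combines replicates, so they were treated as group lists, an inference. The deposited columns used are 2 scores of no stated unit, the authors' p-value and the authors' q-value. Lists ended in 85359, 122456 and 82824 regions on chromosomes 1 to 22 and X after the filter. Depth is unknown.

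Regions were merged where they shared at least 1 base, and genes and promoters came from RefSeq (GRCh38.p14). Python 3.11.15, pandas 2.3.3, numpy 2.4.6 and scipy 1.17.1 were used. On simulated data 5000 of 5000 patterns, region numbers and covered starts were recovered. Members and gene lists were chosen with earlier results of these data known. Named by rule were all genes of the HLA, MIC, peptide loading, complement, tumour necrosis factor, heat shock and chromatin lists. A gene of the HLA lists is not reported here by name. Of the zinc finger, TRIM, olfactory receptor, LY6, butyrophilin and skin lists, up to 4 with the largest mean change were named, as were up to 6 of the outside list, and the 6 MHC genes with most and with fewest regions relative to shScramble. The 5 best-ranked regions of each list and the 5 best gained and lost ones were taken too. Alternatives were an authors' p of at most 0.05, the best 20000 regions of each list, covered bases, an overlap of 50%, shifted part borders and smaller windows. Joining abutting regions was added after seeing the data.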

Additional observations from a re-analysis of the deposited data

How the results depend on the processing

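No paired analysis was possible because 1 list was deposited per group. Of 68 values under alternatives, 56 stayed within counting error or within 1.5 times. Within these 56, some ratios of shCHD4#2 to shScramble turned their direction. Among the best 20000 regions this ratio was 1.28 in class III (0.962 over the whole lists), 0.902 in class II (1.02) and 1.04 in the MHC (0.982). With the best 20000 regions of each list, which fixes list length, MHC regions with shCHD4#1 numbered 0.942 times those with shScramble, turning the direction (1.25 over the whole lists), class I regions 0.933 times (1.25) and class II regions 0.707 times (1.24). There, gained regions made up 11.2% and lost ones 13.5% of merged MHC regions (11.5% and 17.6% in the rest of the genome), 12 starts were covered with both hairpins only (5 over the whole lists), and 15 genes had fewer regions with both (30). With an authors' p of at most 0.05, gained regions made up 10.8% and lost ones 7.64% (13.1% and 12.4% in the rest), 17 genes had more regions with both hairpins (28 without this limit) and 6 fewer (30). Counted in covered bases, class I with shCHD4#2 came to 0.742 times shScramble (0.974 by region number). With an overlap of 50% of the shorter region, lost regions made up 10.3% (12.4% in the rest). The share in all 3 lists stood above that of the rest with p of at most 0.05 (43.9% and 28.8%), the best 20000 (43.3% and 29.8%) and the 50% overlap (37.1% and 26.4%). The causes were not tested. With 1 list per group, unknown depth and few regions per gene, a difference of 1 region cannot be told from how a stretch was cut up.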

Other observations

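Non-coding genes of the window held open regions as well. Of 40 transfer RNA genes, which lie between bases 28537590 and 28989083 and are read by RNA polymerase III, 34 had a region within 1 kb with shScramble, 36 with shCHD4#1 and 34 with shCHD4#2, and 33 in all 3 lists. Of 73 long non-coding RNA genes, 42, 47 and 37 starts were covered. More regions with both hairpins were found for 10 (13.7%) and fewer for 17 (23.3%), beside 25.2% and 13.0% of all protein-coding genes. The shares over all long non-coding genes were not counted, so these numbers have no background of their own kind. Of 18 HLA pseudogenes, 6, 9 and 6 had a region at either end, and their summed region number was 19, 35 and 15. HLA-L had 2, 5 and 3 regions and HLA-K had none. Since pseudogenes resemble the HLA genes closely, reads can be placed on either, which was not tested.

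Set beside chromosome 6 as a whole, the MHC was among the most densely filled stretches. Of 32 other windows of 5 Mb on the chromosome, the median held 137, 202 and 122.5 regions with shScramble, shCHD4#1 and shCHD4#2. None held more regions than the MHC with shScramble or shCHD4#2, and 1 did with shCHD4#1. The rest of chromosome 6 had ratios to shScramble of 1.41 with shCHD4#1 and 0.888 with shCHD4#2.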
